A study of Mus musculus with 3 samples.

Results

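The genes described here encode the light chain of MHC class I molecules (B2m), the classical heavy chains H2-K1 and H2-D1, and 7 proteins that trim, transport and load peptides onto them (Tap1, Tap2, Tapbp, Pdia3, Calr, Canx and Erap1). They are 10 of the 23981 genes named in the platform's gene table. Every probe set naming one of them was taken, 12 in all, and 9 of the 10 genes had at least 1 probe set of their own, among 22180 such genes. The genes were listed by pathway and chosen by the level of B2m, which was already known to be low in progenitors, so their levels are given as a description with no test.

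Levels were measured in 3 populations from the peritoneal cavity of naïve female BALB/c mice aged 10 to 11 weeks, with 1 whole-transcript array per population. Mast cell progenitors were sorted by high c-kit, FcεRI (the high-affinity IgE receptor), high integrin β7 and low side scatter. Mature mast cells had the same c-kit and FcεRI gate with lower integrin β7 and high side scatter. Type 2 innate lymphoid cells (ILC2s), a lymphoid population taken as a distant relative, were sorted by CD127 and CD25 with low or absent c-kit and no FcεRI. All 3 gates required T1/ST2, the cells of 5 mice were pooled before sorting, and each array holds amplified cDNA of 100 cells. No value therefore has an error, and no difference can be set against a spread between replicates.

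Class I molecules show peptides from inside the cell to CD8 T cells and to inhibitory receptors of natural killer cells, and most nucleated cells carry them. Peptides made by the proteasome enter the endoplasmic reticulum through the transporter TAP. There a heavy chain folds with the help of calnexin, pairs with β2-microglobulin, and joins tapasin, calreticulin and the disulfide isomerase ERp57 in the peptide loading complex. Without β2-microglobulin most heavy chains do not reach the cell surface.

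Levels are deposited RMA values on the log2 scale. A gene counted as different where its levels in any 2 populations lay 2 or more apart (4-fold) and the brighter of them exceeded the median of the single-gene probe sets on its array. That floor was 6.32 in progenitors and 6.30 in mature mast cells as well as ILC2s. A second rule used a difference of 1 (2-fold). A dimmer level under its floor was replaced by the floor, and the fold is then a lower bound, written as at least.

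The labels were set against marker transcripts. Of 10 mast cell markers, 5 were at a log2 level of 8 or more in progenitors, against 9 in mature mast cells and 0 in ILC2s, and of 10 ILC2 markers 0 were so in progenitors, against 0 in mature mast cells and 3 in ILC2s. Cpa3, a mast cell protease gene, was at 12.30 in progenitors, against 12.83 in mature mast cells and 5.28 in ILC2s. Kit, the transcript of a sort marker, was at 6.88 in progenitors and 10.29 in mature mast cells, although both gates required high c-kit protein, and at 6.63 in ILC2s. Transcripts of FcεRI, also required by both mast cell gates, were likewise low in progenitors. Fcer1a, its IgE-binding chain, was at 5.37 in progenitors, against 8.87 in mature mast cells and 5.05 in ILC2s. Ms4a2, its β chain, was at 6.25 in progenitors, against 8.13 in mature mast cells and 5.92 in ILC2s. Both progenitor levels lay below the floor. Of 23 measured markers of other peritoneal and blood cells, none was at 8 or more on any array or differed by 2-fold between any pair. Over all genes 1.93% were lower and 0.509% higher by 2-fold in progenitors than in mature mast cells. So few genes were bright or different that 0 of 23 says little about other cells in the sorts. The summed log2 levels of these markers were 145.3 in progenitors, against 144 in mature mast cells and 144.6 in ILC2s. Between progenitors and mature mast cells 13 of the 23 were exactly tied. Their median levels (6.4, 6.4 and 6.41 in the same order) lay near the floor. Sums of such levels come out alike and cannot show whether other cells were present.

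B2m, the light chain shared by all class I molecules, stood at 7.54 in progenitors, against 12.11 in mature mast cells and 12.08 in ILC2s. The progenitor array was thus low and the other arrays were nearly equal. The difference was -4.57 between progenitors and mature mast cells, with the progenitor level 23.7-fold lower, and -4.54 (23.3-fold) between progenitors and ILC2s. Mature mast cells and ILC2s differed by 0.03. Of the 22180 genes, 14 had a more negative difference than B2m between progenitors and mature mast cells, and 20 between progenitors and ILC2s. B2m has a single probe set on the array, so no second measurement of it is at hand. Fewer cells with the transcript and less transcript per cell cannot be told apart in a pool of sorted cells. The arrays hold amplified cDNA, and whether B2m transcript was lost from the progenitor sample in amplification was not tested.

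Pdia3, which encodes ERp57, had the same pattern. Its level was 5.15 in progenitors and 9.16 in both mature mast cells and ILC2s, which were equal to the last deposited digit. A more negative difference than its -4.01 was found for 28 genes between progenitors and mature mast cells and for 42 between progenitors and ILC2s. Since the progenitor level lay below the floor, Pdia3 was lower there than in either other population by at least 7.18-fold. It too has 1 probe set.

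**Figure D1:**
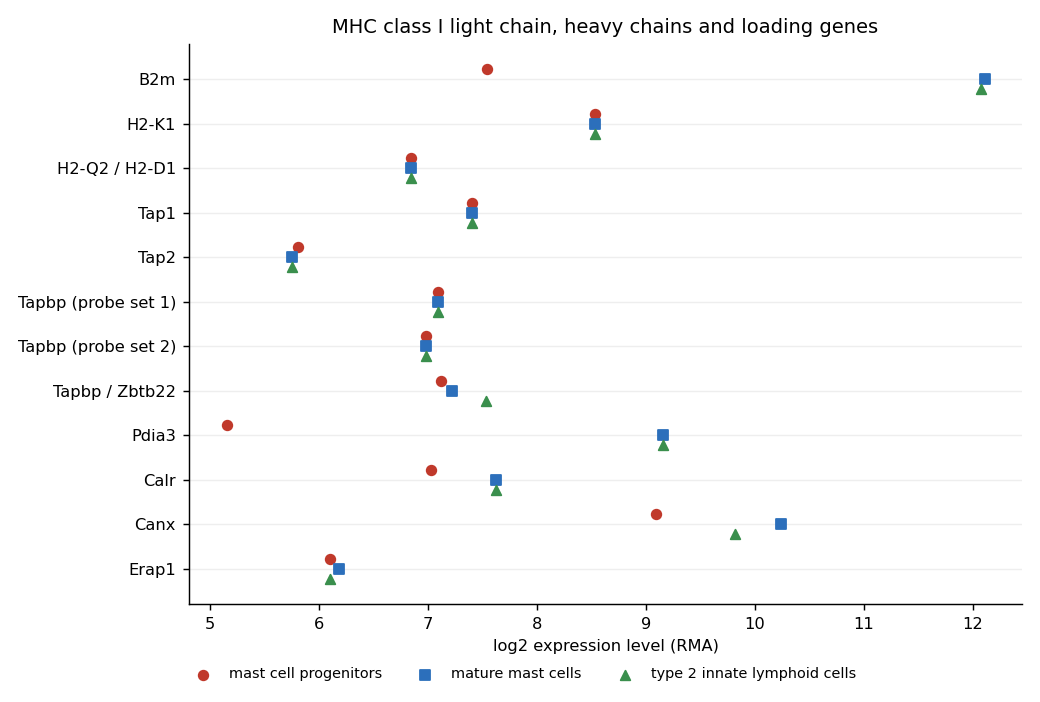
Log2 level (horizontal axis) of each of the 12 probe sets naming a class I light chain, heavy chain or loading gene, with 1 point per array; rows are probe sets, and a slash joins the genes that share one. B2m and Pdia3 in progenitors lie about 4 log2 units or more to the left of the other populations, and Canx lies 1.15 to the left of mature mast cells.

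The lectin chaperones showed smaller differences of the same sign. Canx, the membrane-bound calnexin that holds newly made heavy chains, was at 9.09 in progenitors, against 10.24 in mature mast cells and 9.82 in ILC2s. The progenitor level was 2.22-fold lower than the mature one, past 2-fold and short of 4-fold, and 1.67-fold lower than that of ILC2s. With the arrays quantile normalized again the first of these differences was -0.973, short of 2-fold. Calr, the soluble calreticulin of the loading complex, was at 7.03 in progenitors and at 7.62 in mature mast cells and ILC2s, a difference of -0.59 that reached neither threshold.

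The single-gene probe sets of the transporter, tapasin and the trimming peptidase were tied across the arrays or below the floors. Such levels say little about the size of any difference. Tap1, a subunit of the transporter, was at 7.40 on all 3 arrays. Tap2, its partner, was at 5.81 in progenitors and 5.75 in the others, below each array's floor. Tapbp, which encodes tapasin, has a pair of probe sets of its own, at 7.09 and at 6.98 on every array. A probe set that names Tapbp together with Zbtb22 was at 7.12 in progenitors, against 7.22 in mature mast cells and 7.53 in ILC2s. Erap1, the aminopeptidase that trims peptides in the endoplasmic reticulum, was at 6.10 in progenitors, against 6.18 in mature mast cells and 6.10 in ILC2s, again below the floors.

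The probe sets of the classical heavy chains were tied across the arrays. H2-K1 was at 8.53 on all 3 arrays, from a probe set that names no other gene. H2-D1 has no probe set of its own, and the single one that names it also names H2-Q2 and was at 6.84 on all 3 arrays. BALB/c mice carry other alleles of these polymorphic genes than the C57BL/6J reference strain, and how well the probes match the BALB/c alleles was not tested.

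Such exact ties carry no information on the size of a difference. RMA summarises a probe set by median polish, which gives arrays the same level whenever their fitted array effects are equal. Of all genes 47.9% were tied on all 3 arrays, and 3 of the 9 measured members were (H2-K1, Tap1 and Tapbp). The share was 7.79% among the 693 genes that averaged 8 or more, to which H2-K1 belongs.

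The 250 bases upstream of the RefSeq start are shown for the genes with the low progenitor level, B2m (chr2:122147437-122147686, + strand) and Pdia3 (chr2:121413652-121413901, + strand), and for the classical heavy chain gene H2-K1 (chr17:34000348-34000597, - strand), which was tied. Sequences are of RefSeq build GRCm38.p6, run 5′ to 3′ toward the start, and come from the C57BL/6J reference, not from BALB/c. Capitals mark 4 motifs searched on both strands: GAAANNGAAA (an interferon-stimulated response element core), the NF-κB consensus by name, TGACG (the core of the X2 box of class I promoters) and CCAAT (the Y box core).
B2m: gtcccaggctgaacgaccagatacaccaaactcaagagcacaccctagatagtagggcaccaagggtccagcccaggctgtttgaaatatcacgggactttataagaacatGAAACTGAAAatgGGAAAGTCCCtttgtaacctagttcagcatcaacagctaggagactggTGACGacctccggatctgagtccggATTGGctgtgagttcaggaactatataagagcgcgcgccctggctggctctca
Pdia3: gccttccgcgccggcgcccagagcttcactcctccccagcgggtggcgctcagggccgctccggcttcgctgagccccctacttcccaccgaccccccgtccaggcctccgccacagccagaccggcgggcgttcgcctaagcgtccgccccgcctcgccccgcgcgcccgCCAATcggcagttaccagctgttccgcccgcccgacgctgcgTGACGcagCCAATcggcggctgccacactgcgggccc
H2-K1: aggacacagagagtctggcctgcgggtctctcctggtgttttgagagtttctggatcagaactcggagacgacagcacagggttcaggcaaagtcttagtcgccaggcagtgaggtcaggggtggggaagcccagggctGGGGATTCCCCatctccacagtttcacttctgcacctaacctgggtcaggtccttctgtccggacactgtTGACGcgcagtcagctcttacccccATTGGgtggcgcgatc

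B2m holds all 4 motifs in this window, with GAAACTGAAA at position -139, the NF-κB match GGAAAGTCCC at -126, TGACG at -78 and the CCAAT core, as ATTGG, at -53 from the start. H2-K1 holds an NF-κB match read on both strands within GGGGATTCCCC, where matches at -111 and -110 overlap each other, and TGACG at -41 and ATTGG at -16. Pdia3 holds TGACG at -37 and CCAAT at -79 and -29, and neither GAAANNGAAA nor the NF-κB consensus. No matches to different motifs overlapped. Among 27025 promoter windows of the same length, GAAANNGAAA was found in 3.04%, the NF-κB consensus in 3.75%, TGACG in 17.9% and CCAAT in 34.5%. Of the 9 members with a window in the table, 1, 3, 6 and 8 held them in that order, and Tap2 had no entry. B2m and the tied H2-K1 thus share 3 of the 4 motifs as searched. Only the exact letters GAAANNGAAA were counted, so a window without them, that of H2-K1 included, may hold another form of the interferon element. These matches are descriptions of letters, not of bound factors.

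Across the 9 measured members, B2m and Pdia3 (2 genes) were lower in progenitors than in mature cells by 4-fold or more and none was higher, beside 0.834% of all genes lower and 0.113% higher. With Canx, 3 were lower by 2-fold or more and none was higher, beside 1.93% and 0.509% of all genes. The median difference of the members was -0.07 and that of all genes 0. Between progenitors and ILC2s the same 2 genes were lower in progenitors at either threshold and none was higher. The background in that comparison was 0.888% lower and 0.207% higher at 4-fold, and 1.88% lower and 0.766% higher at 2-fold. The median was 0, as over all genes. These comparisons share the progenitor array, so the second is not independent of the first. Over all genes 63 (0.284%) were 4-fold or more below both other populations in progenitors, B2m and Pdia3 among them. Between mature mast cells and ILC2s no member reached 2-fold in either direction, and the median was 0. Of the 9 members 6 were exactly tied in that comparison, beside 60.6% of all genes. The background there was 1.26% of genes lower and 1.34% higher in mature cells at 2-fold, and 0.401% and 0.573% at 4-fold. Because B2m drew attention to these genes, nothing is read from their share.

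**Figure D2:**
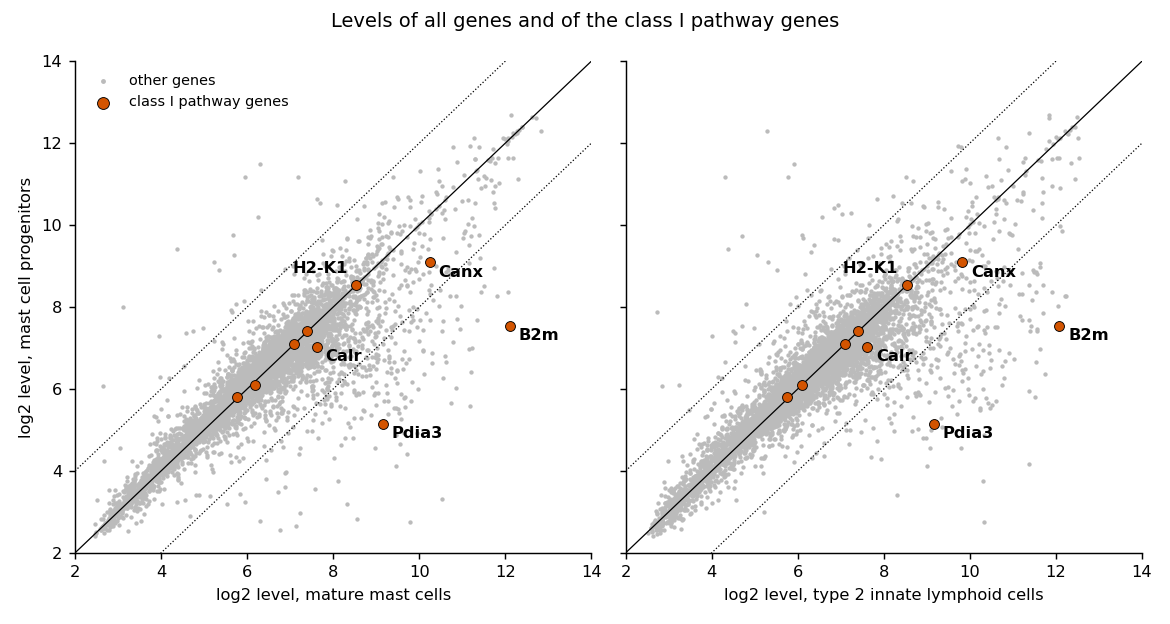
Log2 levels of all 22180 genes in progenitors (vertical axis) against mature mast cells (left) and ILC2s (right), each point a gene and the 9 measured class I pathway genes in orange; the solid line marks equal levels and the dotted lines 4-fold. B2m and Pdia3 lie below the lower dotted line in both panels, Canx and Calr lie between the lines, and the other members lie on or next to the diagonal.

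Many bright genes were also low on the progenitor array, as counted by a rule set with the values in view. Mature mast cells and ILC2s had 176 genes at a log2 level of 9 or more on both arrays and within 2-fold of each other, and in progenitors 37 of them (21.0%) lay 4-fold or more below the mean of those arrays. B2m, Pdia3 and Canx belong to the 176. In 9 genes (5.11%) the progenitor level lay 4 or more log2 units lower, and B2m (-4.55) and Pdia3 (-4.01) are 2 of these 9. Counted in the same way, 0 of 113 genes were 4-fold low on the mature array and 4 of 127 (3.15%) on the ILC2 array. The sets of 113 and 127 genes had to be at 9 or more in progenitors, so genes low there are not among them. Of the 176 genes, 110 (62.5%) lay within 2-fold in progenitors, with a median difference of -0.42, so the low genes form a tail. Whether B2m and Pdia3 share a cause with the other genes of that tail was not tested.

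**Figure D3:**
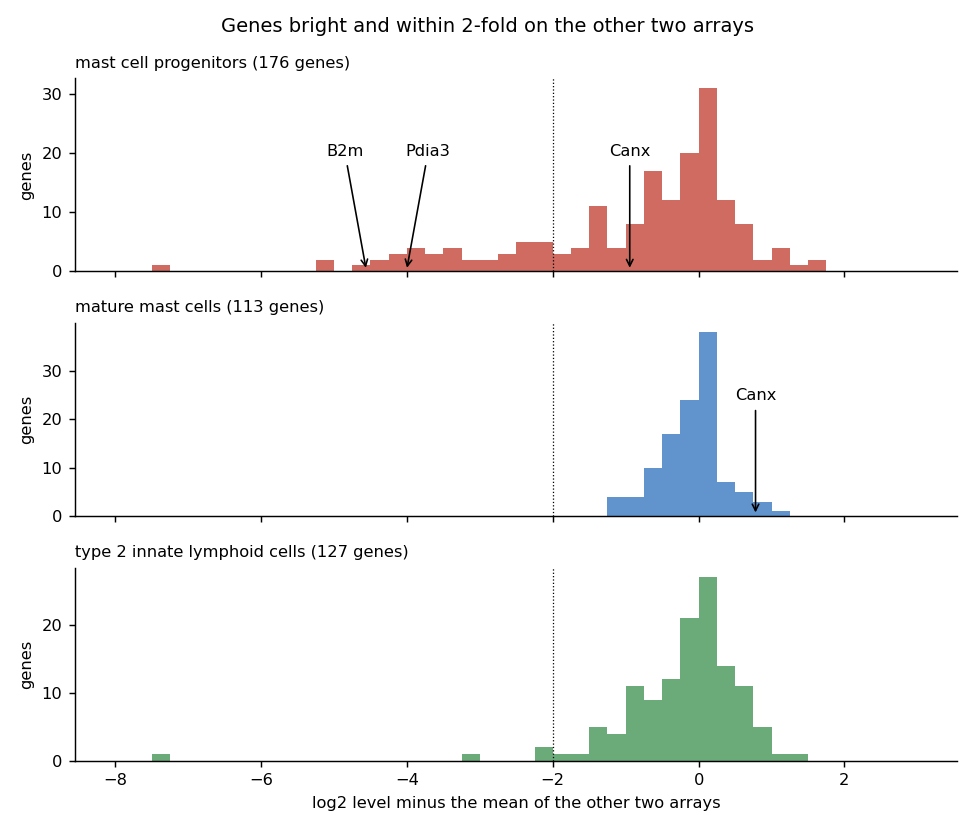
Number of genes (vertical axis) by log2 level on the named array minus the mean of the other arrays (horizontal axis), for genes at 9 or more and within 2-fold on those other arrays; the dotted line marks 4-fold lower. The progenitor panel has a tail to the left that holds 37 of 176 genes, with B2m and Pdia3 far out in it and Canx in the main body.

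A list of abundant, broadly expressed genes gave the same picture more mildly. Of 19 measured genes, progenitors had 1 lower and 1 higher than mature cells by 4-fold, beside 0.834% and 0.113% of all genes. By 2-fold 7 were lower and 1 higher, beside 1.93% and 0.509%. Against ILC2s they had 4 lower and 1 higher by 4-fold, beside 0.888% and 0.207%. By 2-fold 9 were lower and 1 higher, beside 1.88% and 0.766%. Of the 4 genes lower than in ILC2s by 4-fold, Actg1 was at -2.91 by its brightest probe set. As a mean over its 6 probe sets it was at -1.78, short of 4-fold. Not every listed gene was bright here, as Actb (5.79) and Myl6 (5.05) lay below the floor in progenitors. The median difference of the list was -0.56 against mature cells and -0.94 against ILC2s, beside 0 over all genes in either comparison. The translation factor gene Eef1a1 was at 8.01 in progenitors, against 10.97 in mature mast cells and 12.04 in ILC2s, although its difference between progenitors and mature cells was -1.48 as a mean over its probe sets, against -2.96 by the brightest. Fth1, the ferritin heavy chain, was at 11.63 in progenitors, against 12.07 in mature mast cells and 12.03 in ILC2s. Ptma, which encodes prothymosin α, went the other way, at 10.54 in progenitors, against 7.69 in mature mast cells and 8.41 in ILC2s. Lower levels on the progenitor array were therefore not shared by all bright genes.

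The 5 genes whose pattern over the 3 arrays was most like that of B2m were sought among 1140 other genes with a level of 8 or more on some array. Likeness was the root mean square distance between log2 levels after each gene's own mean was subtracted, over 3 points that share their libraries. Pdia3 was the nearest, at a distance of 0.258. Bcap31 came next at 0.282. It encodes a membrane protein of the endoplasmic reticulum that takes part in the export of newly made proteins, class I molecules among them, and was at 6.0 in progenitors, against 9.96 in mature mast cells and 9.95 in ILC2s. The others were Atp5mpl, a small subunit of the mitochondrial ATP synthase (0.287), Trappc6b of a vesicle tethering complex (0.314) and Hnrnph2, an RNA-binding protein gene (0.337). Their levels were 4.12 to 5.77 in progenitors, against 9.27 to 9.65 in mature mast cells and 9.01 to 10.37 in ILC2s. The distances were taken from deposited levels without the floor. All 5 genes lay below the progenitor floor of 6.32 and B2m, at 7.54, above it, so the distances and their order rest on levels under the floor. The difference of Hnrnph2 between progenitors and mature mast cells was -2.06 as a mean over its probe sets, against -3.88 by its brightest.

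Other heavy chains are read through probe sets that often name several genes. In all, 31 probe sets name 32 symbols of the H2-K, H2-D, H2-Q, H2-T, H2-M and H2-Bl series, and 6 of them name more than 1 gene. These 6 join H2-Q2 with H2-D1, H2-Q6 with H2-Q8, H2-T22 with H2-T9 and H2-T3 with H2-T18, and a pair of them joins H2-Q7, H2-Q8 and H2-Q9. Heavy chain genes are close relatives, so a probe set that names a single gene may also bind others, which was not tested.

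Several of these probe sets were highest in ILC2s. The probe set for H2-Q6 and H2-Q8 was at 8.67 in progenitors, against 8.88 in mature mast cells and 11.47 in ILC2s. One of those for H2-Q7, H2-Q8 and H2-Q9 was at 7.65 in progenitors, against 7.37 in mature mast cells and 9.92 in ILC2s, whereas the other was at 6.01 on every array. Of the 3 probe sets naming H2-Q6 to H2-Q9, genes for class I molecules of the Qa region, 2 were thus highest in ILC2s and the other was tied. H2-Q10, known from liver as a gene for a secreted class I molecule, was by its brighter probe set at 8.86 in progenitors, against 10.62 in mature mast cells and 11.50 in ILC2s. Its other probe set was at 7.12 in progenitors, against 7.17 in mature mast cells and 7.25 in ILC2s, so the probe sets disagree and the mean difference over them between progenitors and ILC2s was -1.39. The probe set for H2-T22 and H2-T9 was at 5.85 in progenitors, against 6.79 in mature mast cells and 7.62 in ILC2s. H2-K2, annotated as a transcribed pseudogene beside H2-K1, was highest in mature mast cells at 9.23, against 7.43 in progenitors and 8.29 in ILC2s.

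By count, none of the 31 heavy chain probe sets differed by 4-fold between progenitors and mature mast cells, beside 0.92% lower and 0.15% higher among the 25335 probe sets naming any gene. At 2-fold, H2-K2 and the brighter H2-Q10 (2 probe sets) were lower in progenitors, beside 2.21%. Against ILC2s, 3 were lower in progenitors by 4-fold (H2-Q6 with H2-Q8, the brighter H2-Q10, and H2-Q7 with H2-Q8 and H2-Q9) and none was higher, beside 1.09% and 0.347%. Mature mast cells had 2 lower than ILC2s by 4-fold, the probe sets of H2-Q6 to H2-Q9, and none higher, beside 0.529% and 0.722%. In all, 10 were tied on all 3 arrays. Probe sets of 1 region share sequence, so these are not separate observations.

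**Figure D4:**
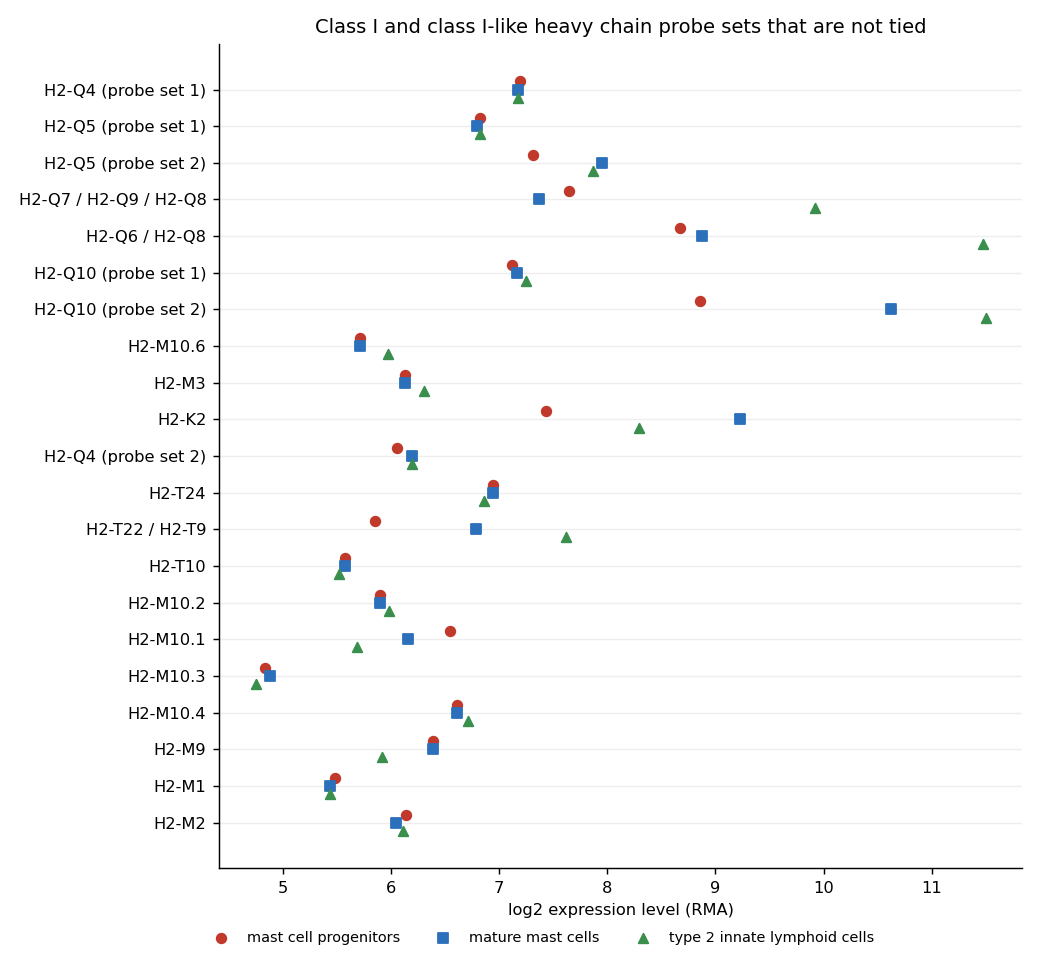
Log2 level (horizontal axis) of the 21 class I and class I-like heavy chain probe sets that were not tied on all 3 arrays, 1 point per array; a slash joins genes that share a probe set. ILC2s stand to the right for the H2-Q6 to H2-Q9 probe sets, the brighter H2-Q10 probe set and the H2-T22 and H2-T9 probe set.

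Of 17 class I-like heavy chain genes with a probe set of their own, H2-Q10 alone reached 2-fold in any comparison. It was lower in progenitors by 2-fold, beside 1.93% of all genes against mature mast cells and 1.88% against ILC2s. Genes that encode partners of β2-microglobulin outside antigen display to CD8 T cells were among the others. Fcgrt, the heavy chain of the neonatal Fc receptor, was at 7.22 in progenitors, against 7.17 in mature mast cells and 7.23 in ILC2s. Cd1d1, which presents lipids, was at 6.66 on all 3 arrays, and Mr1, which presents vitamin metabolites, was at 6.63 in progenitors and 6.60 in the others. The median difference of the list was 0 between progenitors and mature mast cells, 0.03 between progenitors and ILC2s and 0 between mature mast cells and ILC2s, beside 0 over all genes in each comparison.

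Genes for peptide supply were tied or within 2-fold between the mast cell populations. Of 10 genes for catalytic proteasome subunits and proteasome activators none reached 2-fold between progenitors and mature mast cells. Over all genes 1.93% were lower and 0.509% higher in progenitors there. Of the 10 genes 4 were exactly tied in that comparison, beside 58.3% of all genes. By 2-fold, 2 were lower in progenitors than in ILC2s (Psmb9 and Psmb7), beside 1.88% of all genes. In mature mast cells 1 was lower than in ILC2s by 2-fold (Psmb7), beside 1.26%. Psmb9, an interferon-inducible subunit encoded next to Tap1, was at 7.47 in progenitors, against 8.0 in mature mast cells and 8.63 in ILC2s. Psmb7, a constitutive subunit, was at 6.54 in both mast cell populations and 7.65 in ILC2s. Psme1, a subunit of the PA28 activator, was at 8.27 in progenitors, against 8.52 in mature mast cells and 8.87 in ILC2s. The list's median difference was 0 between progenitors and mature mast cells, -0.07 between progenitors and ILC2s and -0.12 between mature mast cells and ILC2s.

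Of 15 other genes of peptide loading and endoplasmic reticulum folding, Bcap31 alone passed 4-fold, lower in progenitors in both comparisons. Over all genes 0.834% were lower in progenitors by 4-fold against mature mast cells and 0.888% against ILC2s. The progenitor level of Bcap31 lay below the floor, which makes the fold at least 12.5 against mature mast cells and at least 12.4 against ILC2s. Hsp90b1, which encodes the chaperone GRP94, was at 7.17 in progenitors, against 8.04 in mature mast cells and 7.85 in ILC2s, short of 2-fold. Hspa5, the chaperone BiP, was at 6.99 on every array, and Tapbpl, a tapasin relative that edits peptides, was at 7.03 on every array. The median of the list was 0 in each comparison. Between progenitors and mature mast cells 10 of 15 genes were tied, beside 58.3% of all genes.

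Of 18 measured regulators of class I genes none reached 2-fold between the mast cell populations. Over all genes 1.93% were lower and 0.509% higher in progenitors by 2-fold there. In that comparison 11 of the 18 were exactly tied, beside 58.3% of all genes. Nlrc5, the transactivator of class I genes, was at 6.63 and Rfx5, which binds the X box, at 6.36 on all 3 arrays, and the interferon response factor Irf1 was at 6.79 in progenitors, against 6.78 in mature mast cells and 6.79 in ILC2s. Ifngr1, the ligand-binding chain of the interferon γ receptor, was the only one past 2-fold, at 7.62 in progenitors, against 7.70 in mature mast cells and 9.51 in ILC2s. Against ILC2s, 1.88% of all genes were lower and 0.766% higher by 2-fold in progenitors, and 1.26% and 1.34% in mature mast cells. The list's median was 0 in each comparison. None of 10 measured MHC class II genes reached 2-fold in any comparison, beside the same shares of all genes. The median of the class II list was 0 in each. H2-Ab1, the β chain of I-A, was at 7.69 in progenitors, against 7.68 in mature mast cells and 7.96 in ILC2s, and Ciita, the class II transactivator, was at 7.54 on all arrays.

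**Figure D5:**
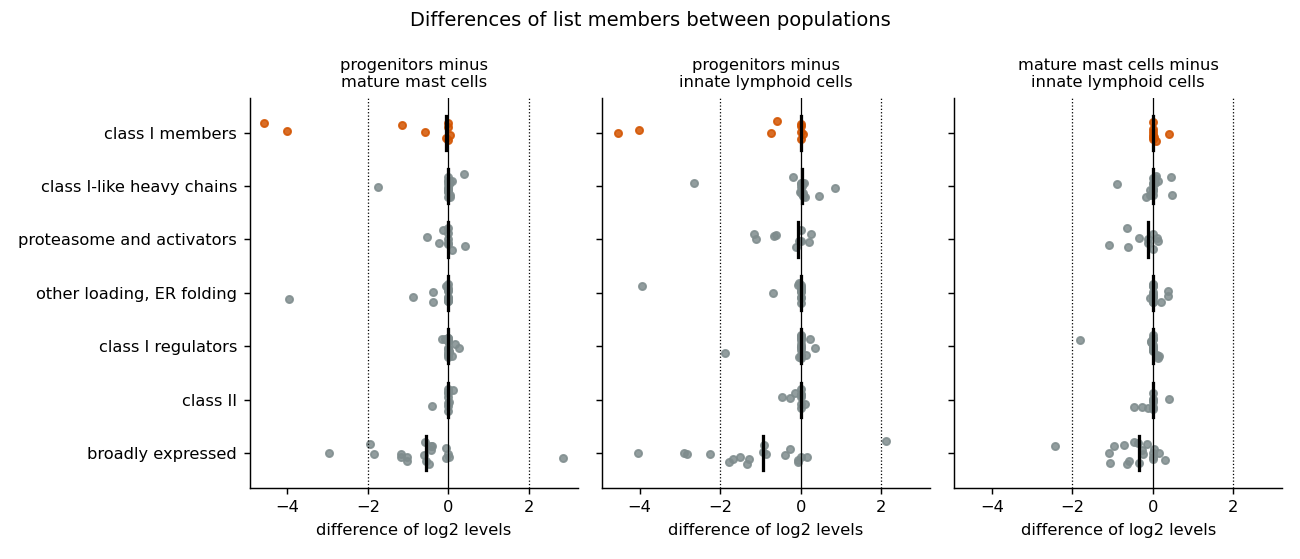
Difference of log2 levels (horizontal axis) for each measured gene of the class I members and 6 other lists, in the 3 comparisons; each point is a gene, the thick bars are list medians and the dotted lines mark 4-fold. B2m and Pdia3 among the members and Bcap31 among the other loading genes lie near or beyond -4 in both comparisons with progenitors, and no member passes 4-fold between mature mast cells and ILC2s.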

How the data were processed

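The authors deposited log2 expression levels for 41345 probe sets on 3 arrays. They made them with RMA, per the submitters' processing notes, without a software name or version. Values between 2.23 and 13.7 fit a log2 scale. RNA was amplified from 100 cells per population, per the labels' protocols, which can lose transcripts or change their proportions. Array number limits the precision, and the arrays have no replicates. The build behind the probe sets is not given in the sources used here.

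The platform's gene table names 1 gene for 23521 probe sets and several for 1814, and 16010 are unnamed there. Entrez identifiers of 23328 single-gene probe sets matched RefSeq GRCm38.p6, which changed no symbol. A gene was represented by its single-gene probe set with the highest mean. Differences of log2 levels were taken between arrays in Python 3.11.15 with pandas 2.3.3, and no test was possible. The calling step was run on simulated levels with no ties and with differences set larger than the threshold. That run checks the code and says nothing about the noise of these arrays. Named genes are the members, listed genes past 4-fold or among the 3 largest differences of their list in a comparison, and the 5 genes most like B2m. Some others (Fth1, Fcgrt, Cd1d1, Mr1, Hspa5, Tapbpl, Nlrc5, Rfx5, Irf1 and Ciita) were picked for their role after their values were seen, as were the heavy chain probe sets and the motifs. The members and the 10 lists were chosen with earlier results of these data known. Listed genes with no probe set of their own, among them Nfkb1 and Cd74, were not analysed here.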

Additional observations from a re-analysis of the deposited data

How the results depend on the processing

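The counts of members at 4-fold (2, 2 and 0 in progenitors against mature mast cells, progenitors against innate lymphoid cells, and mature mast cells against innate lymphoid cells) were the same with no floor, with a floor at the 75th percentile, with the mean over probe sets, with arrays quantile normalized or centred on their medians, and with shared probe sets included. With the 2-fold rule they were 3, 2 and 0 in the same order. The mean could not change the 4-fold counts, since among measured members only Tapbp has more than 1 probe set of its own, both tied. Dropping the floor could not either, since B2m and Pdia3 were already called and no other member was 4-fold apart. Centring moved the difference of B2m between progenitors and mature mast cells only from -4.57 to -4.59. These settings therefore say little about how firm the counts are. No member's difference changed by more than 0.38, the shift of Canx between progenitors and innate lymphoid cells with arrays quantile normalized, where it was -0.358. Alternatives for the 5 pathway lists were added after the data were examined. Of their 70 genes 1, 2 and 0 passed 4-fold, all lower in the first-named population, beside 0.834%, 0.888% and 0.401% of all genes lower. The 2-fold rule gave 2, 5 and 2, also all lower, beside 1.93%, 1.88% and 1.26%. Shared probe sets gave 1, 6 and 4 of 81 genes, because probe sets joining H2-Q6, H2-Q7, H2-Q8 and H2-Q9 then count for each symbol. The mean over probe sets gave 1 between progenitors and innate lymphoid cells, since H2-Q10 dropped out. Of 513 recomputed differences of 57 genes, 8 moved by over 1.5-fold or past 4-fold, all by the mean over probe sets (Eef1a1, Actg1, Hnrnph2 and H2-Q10), and no called one was reversed. At 2-fold 3 calls were lost: Canx between progenitors and mature mast cells with arrays quantile normalized (-0.973), and, by the mean over probe sets, H2-Q10 in that comparison (-0.906) and Eef1a1 between mature mast cells and innate lymphoid cells (-0.843). No paired analysis was possible because each population has 1 array. Amplification from 100 cells, dim levels and exact ties limit what differences can be seen.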
